A study of Homo sapiens with 12 samples.

Results

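AXL, MERTK and TYRO3 form the TAM family of receptor tyrosine kinases, and GAS6 and PROS1 encode their secreted ligands. These 5 genes were followed in 12 expression arrays of HCC827, an established human lung adenocarcinoma cell line with an activating EGFR mutation. A member was any probe set, a group of short probes summarised as 1 value, that the platform annotation gave to 1 of these symbols alone. There were 10 such probe sets among the 22277 of the array: 2 for AXL, 3 for MERTK, 2 for TYRO3, 2 for GAS6 and 1 for PROS1. All 10 were tested, with no filter on low values.

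The labels gave 4 groups of 3 arrays. Parental HCC827 cells and ERC4 cells, described as resistant to the EGFR kinase inhibitor erlotinib, grew in RPMI with 5% FBS and antibiotics. HCC827NT cells carried a lentivirus with a non-target shRNA (NT here), and HCC827_Esh9-1 cells a lentivirus with an shRNA against EGFR (EGFRsh here), and both grew in the same medium with 5 ug/ml puromycin added. A characteristic marks every one of the 12 arrays as resistant, even those of parental cells, so groups follow the titles. ERC4 is a single resistant line and Esh9-1 a single shRNA label, so what belongs to that line or construct cannot be told apart from resistance or EGFR depletion. The labels do not say whether replicates were separate cultures, and p-values therefore measure the spread between these arrays, which may be technical.

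TAM receptors sit in the cell membrane and are switched on when a ligand joins them to phosphatidylserine, a lipid exposed on dying cells and some tumour cells. GAS6 binds all the TAM receptors, and PROS1, protein S, binds TYRO3 and MERTK and is also an anticoagulant of plasma. The ligands reach phosphatidylserine through a domain that needs vitamin K-dependent carboxylation. In lung cancers with mutant EGFR, AXL is known as a receptor that can sustain growth under EGFR inhibitors and that is often high in mesenchymal cells.

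Values are RMA intensities, given below as log2(intensity + 1), so that a difference of 1 is close to a doubling. Array medians were 5.67 to 5.75 on this scale in the first set, parental and ERC4, and 7.15 to 7.17 in the second, and each comparison was therefore made within its own set of 6 arrays. Replicate arrays correlated across probe sets at 0.9922 or above. Of the 6 EGFR probe sets, 201983_s_at fell by 1.30 ± 0.07 (SE) in EGFRsh against NT and 201984_s_at by 2.16 ± 0.09 (limma adjusted p = 9.2e-07 and 1.3e-07). The bright 210984_x_at and 211607_x_at changed by -2.70 and -2.72, the dim 211550_at differed by 0.06 and was not called, and 211551_at was called higher by 0.18 (adjusted p = 0.045). In ERC4 against parental, 201984_s_at was called higher by 0.66 ± 0.08 (adjusted p = 0.00016), 210984_x_at by 0.27 and 211607_x_at by 0.26 (adjusted p = 0.023 and 0.021). The others were not called there, with 201983_s_at at 0.21 (adjusted p = 0.051), 211550_at at -0.06 and 211551_at at 0.06. The control probe sets for ACTB gave an excess of 3' over 5' log2 signal of 1.07 ± 0.15 (SD, n = 3) in EGFRsh and 0.20 ± 0.03 in NT, a difference of 0.87, and those for GAPDH a difference of 0.35 (both with p = 0.1 in a two-sided exact permutation test, the lowest that 3 against 3 arrays allow). In ERC4 against parental these differences were -0.03 for ACTB and -0.15 for GAPDH (exact permutation p = 0.5 and 0.1). Their part in the EGFRsh results below was not tested.

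The 2 AXL probe sets behaved differently. In 202686_s_at, AXL rose in ERC4 and rose more steeply in EGFRsh, where its change was larger in size than that of 99.3% of all probe sets. In 202685_s_at the EGFRsh increase was small and ERC4 did not pass the test. TYRO3 passed in neither comparison. Of the ligands, GAS6 rose in EGFRsh and fell slightly in ERC4, and PROS1 did the reverse, rising in ERC4 and falling in EGFRsh.

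The log2 levels of AXL 202686_s_at were 4.77, 4.49 and 4.39 in the parental arrays and 5.59, 5.38 and 5.56 in ERC4. The groups did not overlap, and each ERC4 array lay above every parental one. The change was 0.95 ± 0.11 (SE; 95% interval 0.71 to 1.20), a 1.94-fold increase (limma adjusted p = 9.4e-05). All 6 arrays lay under their medians, at percentiles 20.5 to 28.3 of the array in parental and 44.3 to 47.7 in ERC4, so this fold rests on dim signal.

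In the shRNA set, AXL 202686_s_at read 5.59, 5.12 and 5.32 in NT and 8.48, 8.47 and 8.19 in EGFRsh. The EGFRsh arrays stood far above the NT arrays and above the array median, at percentiles 64.5 to 68.2 against 17.7 to 25.3. The change was 3.04 ± 0.12 (95% interval 2.76 to 3.32), an 8.22-fold increase (adjusted p = 1.1e-07). Over 14 other settings it ranged from 2.93 to 3.16.

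AXL 202685_s_at read 5.69, 5.87 and 6.04 in parental and 5.70, 5.76 and 5.52 in ERC4, and the groups overlapped. Its difference of -0.21 ± 0.11 (95% interval -0.45 to 0.03) did not pass the test (adjusted p = 0.14). It passed without parental replicate 1 (-0.29, adjusted p = 0.045) and shrank without parental replicate 3 (-0.12, adjusted p = 0.39) or ERC4 replicate 3 (-0.14, adjusted p = 0.38). In NT it read 6.19, 6.10 and 6.22 and in EGFRsh 6.52, 6.42 and 6.51, without overlap and under the array median throughout. That change was 0.31 ± 0.06, a 1.24-fold increase (adjusted p = 0.0029).

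Between the AXL probe sets, the change in 202686_s_at exceeded that in 202685_s_at by 1.16 in ERC4 and by 2.73 in EGFRsh (both with p = 0.1 in that exact permutation test). The SDs of this within-array difference were 0.19 to 0.37 (n = 3). With both probe sets averaged, the gene changed by 0.37 ± 0.06 in ERC4 and 1.68 ± 0.08 in EGFRsh (adjusted p = 0.0011 and 1.9e-07), so the size of the AXL change depends on the probe set, while its direction in EGFRsh does not. The part of the AXL transcript that each probe set reads is not given in the sources used here.

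**Figure D1:**
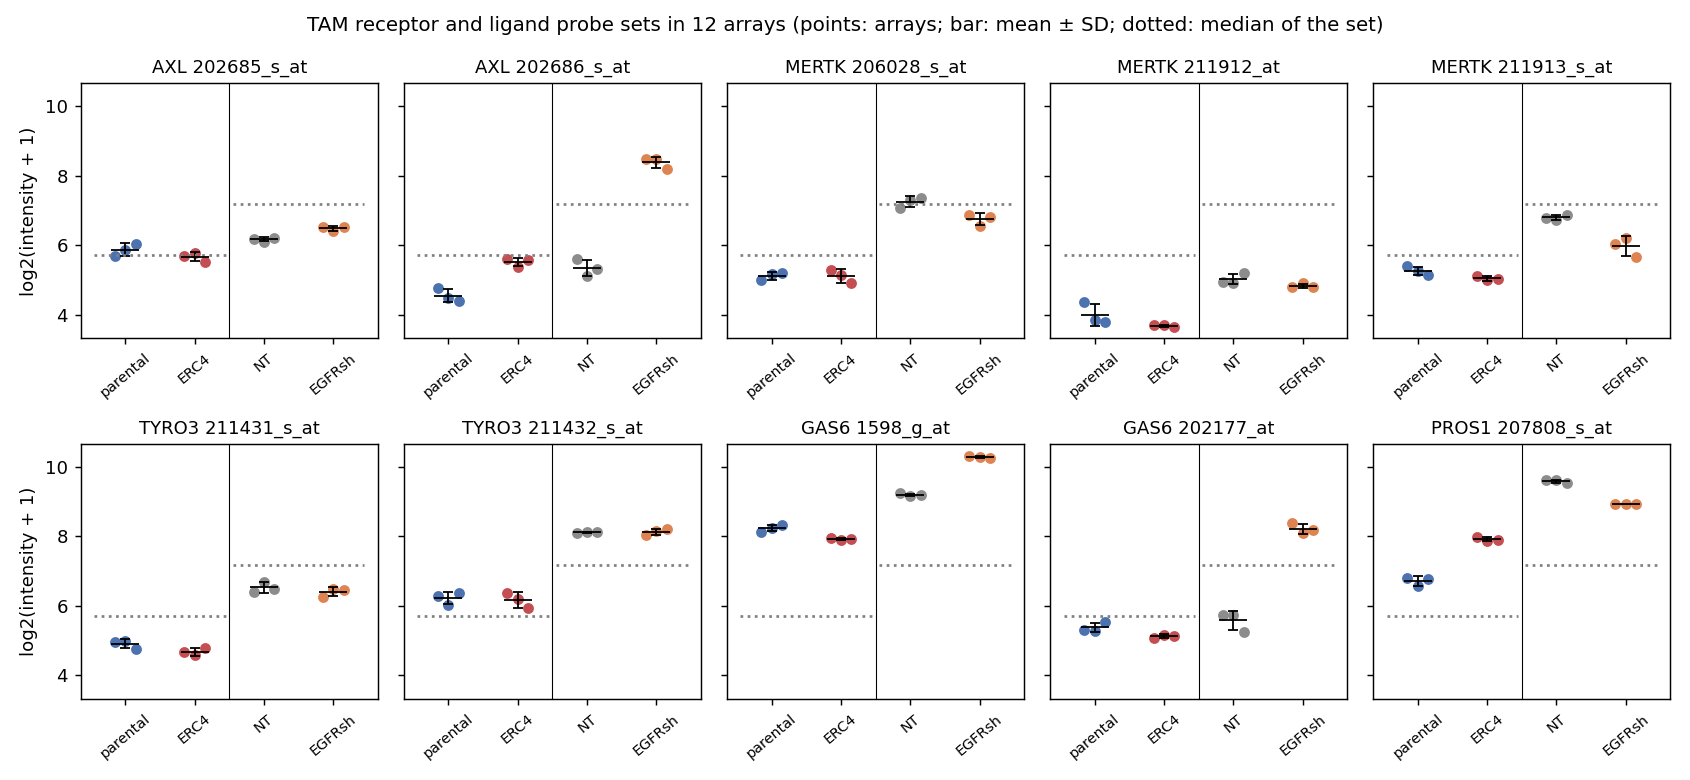
The log2(intensity + 1) of each of the 10 probe sets is plotted for every array, with points for arrays, bars for the mean ± SD (n = 3) and dotted lines for the median of each set of 6 arrays. AXL 202686_s_at and GAS6 202177_at cross from below the dotted line in NT to above it in EGFRsh, while both TYRO3 panels stay level within each set.

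RefSeq (GRCh38.p14) gives AXL 2 start sites, and the 250 bases before each are shown. SP1, ZEB1, the TEAD partners YAP1 and WWTR1, and the AP-1 subunits FOSL1 and JUN are known to act through the motifs searched. Their transcripts are described below. The windows are chr19:41218973-41219222 and chr19:41226505-41226754 on the plus strand. Both strands were searched for a GC box as bound by SP1 (GGGCGG), an AP-1 site (TGACTCA), an E-box as bound by ZEB1 (CAGGTG) and a TEAD motif (GGAATG), and matches are in capitals, none of them overlapping.
AXL, upstream start: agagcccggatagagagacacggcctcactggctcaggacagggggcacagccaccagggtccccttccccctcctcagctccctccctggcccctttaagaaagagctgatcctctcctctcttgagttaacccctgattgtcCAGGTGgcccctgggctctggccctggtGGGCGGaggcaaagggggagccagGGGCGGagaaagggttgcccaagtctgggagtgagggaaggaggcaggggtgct
AXL, downstream start: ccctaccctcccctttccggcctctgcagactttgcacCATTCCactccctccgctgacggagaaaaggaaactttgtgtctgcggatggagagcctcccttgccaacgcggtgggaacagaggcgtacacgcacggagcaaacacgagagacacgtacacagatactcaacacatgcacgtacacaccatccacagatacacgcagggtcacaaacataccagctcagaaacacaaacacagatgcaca
The upstream window held 2 GC boxes and 1 E-box, and the downstream window 1 TEAD motif. Neither held an AP-1 site. Of 35116 windows of this length, 42.6% held a GC box, 4.2% an AP-1 site, 17.5% the E-box and 11.9% the TEAD motif. A match of letters is a description and shows no binding.

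MERTK, the receptor best known from engulfment of dying cells by macrophages, was lower in EGFRsh in 2 of its 3 probe sets. In 211913_s_at it read 6.79, 6.72 and 6.88 in NT and 6.04, 6.21 and 5.66 in EGFRsh, with every EGFRsh array below the NT arrays. It fell by 0.82 ± 0.13 (adjusted p = 0.0005), a 1.77-fold decrease. In 206028_s_at it read 7.08, 7.31 and 7.37 in NT and 6.87, 6.55 and 6.81 in EGFRsh, again without overlap, and fell by 0.50 ± 0.11 (adjusted p = 0.0032). The dimmest probe set, 211912_at, read 4.95, 4.92 and 5.19 in NT and 4.81, 4.90 and 4.79 in EGFRsh, differed by -0.19 ± 0.08 and was not called (adjusted p = 0.085).

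In ERC4 no MERTK probe set was called. Probe set 206028_s_at read 5.00, 5.17 and 5.20 in the parental arrays and 5.28, 5.14 and 4.90 in ERC4, with overlap, and 211913_s_at 5.39, 5.26 and 5.15 against 5.12, 5.00 and 5.02, without. The differences were -0.02 ± 0.11 in 206028_s_at (95% interval -0.26 to 0.23), -0.22 ± 0.09 in 211913_s_at (adjusted p = 0.063) and -0.32 ± 0.14 in 211912_at (adjusted p = 0.081). The last of these read 4.36, 3.86 and 3.79 in parental and 3.70, 3.70 and 3.65 in ERC4, where parental replicate 1 stood above the rest. Single arrays moved these values. Without parental replicate 1, 211912_at was at -0.14 (adjusted p = 0.19) and 211913_s_at at -0.16 (adjusted p = 0.17), while without parental replicate 3 they were called at -0.43 and -0.28 (adjusted p = 0.033 and 0.038). Probe set 211912_at was also called in 1 model of all 12 arrays (adjusted p = 0.04) and with trend and robust settings (adjusted p = 0.042). Within-set quantile normalization gave -0.22 and -0.11 (adjusted p = 0.23 and 0.32). Apart from 206028_s_at, which reached the median in 2 of 3 NT arrays, MERTK lay under the array median in every array.

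TYRO3, the family member known mainly from the nervous system, was not called in either comparison. Probe set 211432_s_at read 6.28, 6.04 and 6.38 in parental cells and 6.36, 6.21 and 5.93 in ERC4. The NT arrays read 8.10, 8.14 and 8.12 and the EGFRsh arrays 8.04, 8.15 and 8.20. The groups overlapped within each set, and all 12 values lay above the array median. Its difference was -0.07 ± 0.13 in ERC4 (95% interval -0.35 to 0.22) and 0.01 ± 0.07 in EGFRsh (95% interval -0.14 to 0.16). The dimmer 211431_s_at lay under the median in every array, at 4.76 to 5.00 in parental and 4.58 to 4.80 in ERC4, and at 6.40 to 6.69 in the NT arrays and 6.27 to 6.50 in EGFRsh. Its differences were -0.22 ± 0.09 (adjusted p = 0.078) and -0.12 ± 0.09 (adjusted p = 0.33), the first called without parental replicate 3 (-0.29, adjusted p = 0.035) and at -0.11 after within-set quantile normalization (adjusted p = 0.39). RefSeq lists the pseudogenes TYRO3P and PROS2P, and whether the probes of TYRO3 and PROS1 also bind their transcripts was not examined.

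GAS6, the ligand of all TAM receptors, rose in EGFRsh in both of its probe sets. In 1598_g_at it read 9.24, 9.16 and 9.19 in NT and 10.31, 10.29 and 10.26 in EGFRsh, and arrays within a group differed by under 0.1 while the groups lay 1.09 ± 0.06 apart (a 2.13-fold increase, adjusted p = 5.9e-07). In 202177_at it read 5.75, 5.74 and 5.26 in NT, all under the array median, and 8.39, 8.10 and 8.18 in EGFRsh, all above it. That probe set gave 2.64 ± 0.14, a 6.23-fold increase (adjusted p = 4.5e-07) that was larger in size than 99.0% of all probe sets. The change in 202177_at exceeded that in 1598_g_at by 1.55 (exact permutation p = 0.1 again). As in AXL, the dimmer probe set in NT gave the larger fold, and the mean of the GAS6 probe sets gave 1.87 ± 0.08 (adjusted p = 1.2e-07).

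In ERC4 both GAS6 probe sets were lower. In 1598_g_at it read 8.14, 8.25 and 8.32 in parental and 7.94, 7.91 and 7.93 in ERC4, without overlap, a difference of -0.31 ± 0.08 (adjusted p = 0.0087), which within-set quantile normalization moved to -0.54. In 202177_at it read 5.32, 5.29 and 5.53 in parental and 5.08, 5.17 and 5.14 in ERC4, and the difference of -0.25 ± 0.09 narrowly passed (adjusted p = 0.038). That call ended after quantile normalization (-0.15, adjusted p = 0.22), after median centring (-0.19, adjusted p = 0.11), in 1 model of all 12 arrays (adjusted p = 0.094), with trend and robust settings (adjusted p = 0.07) and without parental replicate 3 (adjusted p = 0.13) or ERC4 replicate 1 (0.11), 2 (0.069) or 3 (0.085).

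PROS1 has a single probe set, 207808_s_at. It read 6.81, 6.56 and 6.78 in parental and 7.98, 7.88 and 7.91 in ERC4, and the lowest ERC4 array lay more than 1 log2 unit above the highest parental one. PROS1 rose by 1.21 ± 0.09 (95% interval 1.01 to 1.41), a 2.31-fold increase (adjusted p = 6.2e-06), larger in size than 96.7% of all probe sets. In NT it read 9.62, 9.61 and 9.55 and in EGFRsh 8.93, 8.92 and 8.93, again without overlap. There it fell by 0.66 ± 0.06, a 1.59-fold decrease (adjusted p = 1.3e-05). All 12 values lay above the array median.

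The windows before the single RefSeq starts of the ligand genes are shown for comparison with AXL. GAS6 rose with AXL in EGFRsh, and PROS1 rose in ERC4 with AXL 202686_s_at but not with 202685_s_at. They are chr13:113864077-113864326 for GAS6 and chr3:93973897-93974146 for PROS1, both on the minus strand and printed in the direction of transcription, with the same motifs in capitals.
GAS6: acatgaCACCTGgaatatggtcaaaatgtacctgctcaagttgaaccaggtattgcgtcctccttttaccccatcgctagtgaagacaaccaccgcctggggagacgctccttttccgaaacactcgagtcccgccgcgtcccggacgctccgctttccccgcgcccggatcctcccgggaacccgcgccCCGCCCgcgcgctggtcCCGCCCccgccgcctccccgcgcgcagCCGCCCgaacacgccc
PROS1: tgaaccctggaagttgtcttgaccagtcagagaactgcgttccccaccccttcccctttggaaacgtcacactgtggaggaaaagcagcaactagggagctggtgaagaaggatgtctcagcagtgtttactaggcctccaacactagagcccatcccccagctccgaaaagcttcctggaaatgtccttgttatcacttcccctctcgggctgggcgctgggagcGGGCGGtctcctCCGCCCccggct
GAS6 held 3 GC boxes and 1 E-box and PROS1 2 GC boxes. The window of MERTK held 4 GC boxes, those of the 2 TYRO3 starts 3 and 0, and none of the other motifs. GC content was 64.4% and 54.4% in the AXL windows, 66.8% in GAS6 and 57.6% in PROS1.

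**Figure D2:**
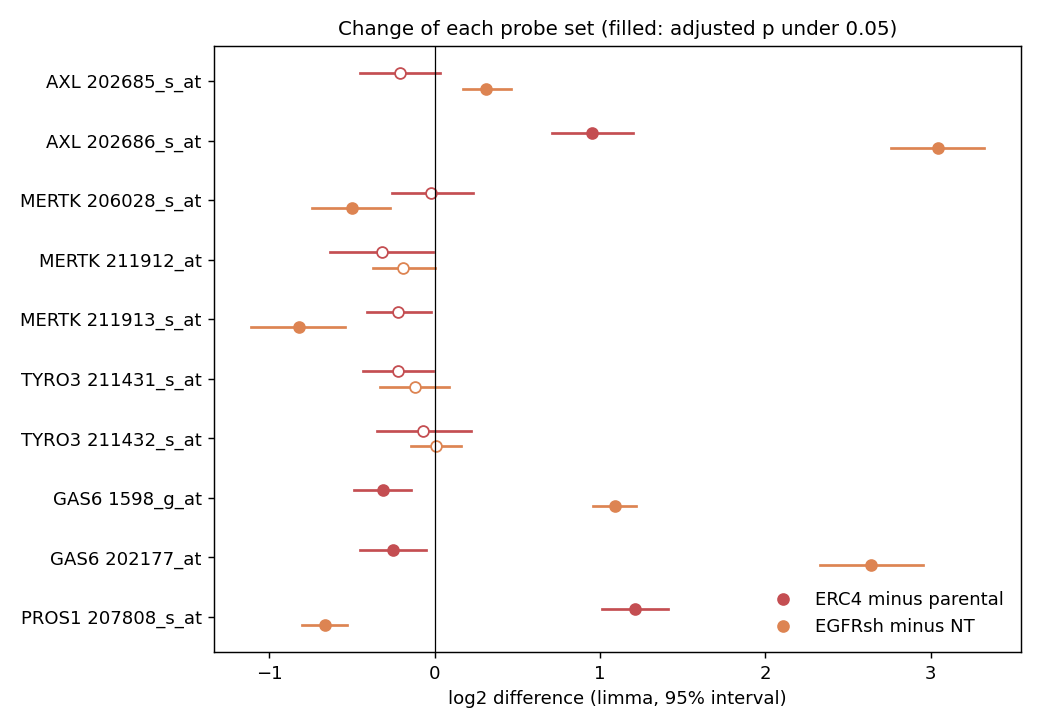
Log2 differences from limma with 95% intervals are drawn for each probe set in ERC4 minus parental and EGFRsh minus NT, and filled points passed an adjusted p under 0.05. AXL 202686_s_at lies right of 0 in both comparisons, at 0.95 and 3.04, while GAS6 and PROS1 lie on opposite sides of 0.

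In all, 4 of the 10 probe sets were called in ERC4, 2 higher and 2 lower, and 7 in EGFRsh, 4 higher and 3 lower. Over all 22215 probe sets tested, 48.5% were called in ERC4 (23.6% higher and 24.9% lower) and 50.3% in EGFRsh (24.5% higher and 25.9% lower). The share of ERC4 calls that were higher was 48.7%, and 58.9% after median centring. The arrays of the compared groups did not overlap in 6 of 10 probe sets in ERC4 and 8 of 10 in EGFRsh, against 58.2% and 58.8% of all probe sets. The median change of the members was -0.22 in ERC4 and -0.06 in EGFRsh, beside -0.06 and -0.03 over all probe sets, and with 10 probe sets these counts do not set the members apart from the array as a group.

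The changes in the 2 comparisons were also set against each other in a model of all 12 arrays, as ERC4 minus parental less EGFRsh minus NT. This difference was called for 7 of the 10 probe sets, against 47.4% of all probe sets. For AXL 202686_s_at it was -2.08 ± 0.18, so that the increase was 4.24-fold smaller in ERC4 (adjusted p = 3.2e-07), and for PROS1 it was 1.87 ± 0.10 (adjusted p = 4e-09). The sets of arrays had unequal spread, and with the first set stretched to the spread of the second the same number of probe sets was called.

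Ranks within each array give a view across both sets, as a description, since group and set cannot be told apart between them. GAS6 1598_g_at lay at percentiles 87.6 to 89.0 in the parental arrays, 82.4 to 83.1 in the ERC4 arrays, 77.7 to 78.5 in the NT arrays and 88.8 to 89.1 in EGFRsh, so that NT ranked lowest and EGFRsh near parental. GAS6 202177_at ranked lowest in NT as well, at 20.3 to 27.8 against 40.1 to 45.4 in parental and 63.0 to 66.7 in EGFRsh. PROS1 lay at 65.8 to 70.2 in the parental arrays, 82.2 to 83.5 in those of ERC4, 81.9 to 82.8 in those of NT and 74.3 to 74.7 in EGFRsh, where NT lay near ERC4 and above parental. AXL 202686_s_at ranked alike in the controls, at 20.5 to 28.3 in parental and 17.7 to 25.3 in NT. MERTK 206028_s_at lay at 33.2 to 38.2 in parental, 48.8 to 52.9 in NT and 41.3 to 45.8 in EGFRsh, between the controls. MERTK 211913_s_at lay at 37.0 to 41.9, 43.2 to 45.8 and 26.7 to 35.9 in the same order, with EGFRsh under both controls. For GAS6, PROS1 and MERTK, whether EGFRsh or NT departed from the untreated state cannot be told apart.

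**Figure D3:**
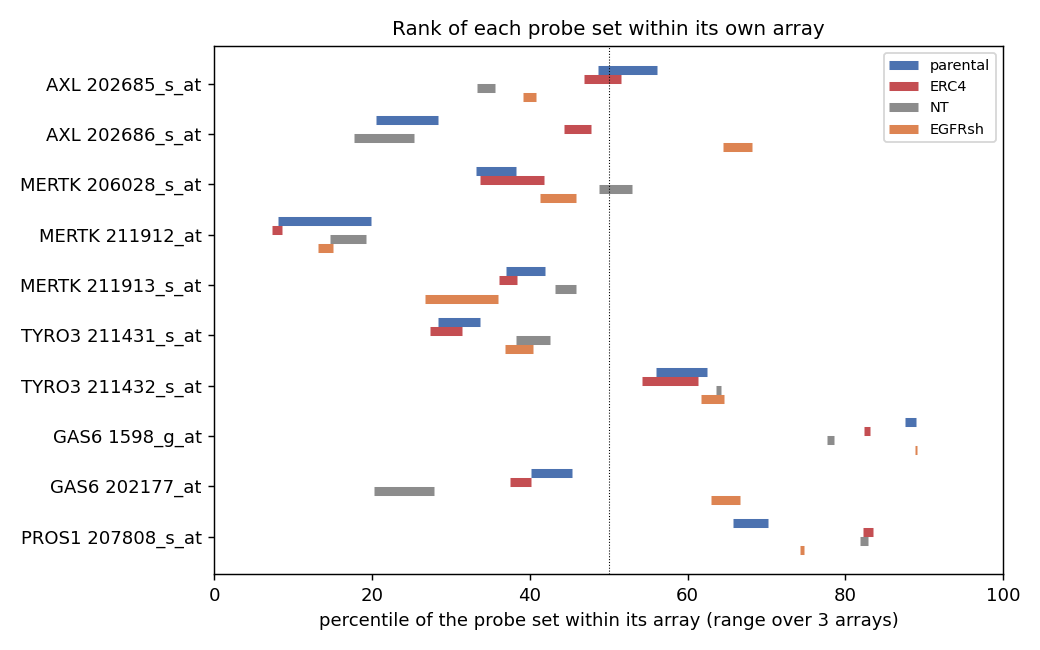
Each bar spans the percentiles, within the array, of 1 probe set over the 3 arrays of a group, and the dotted line marks the array median. The NT bars of both GAS6 probe sets lie left of the parental bars, while for AXL 202686_s_at parental and NT bars overlap and the EGFRsh bar lies past 60.

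Genes around the TAM receptors were grouped by role, each gene by its brightest probe set with 1 symbol, and read against the 11963 genes so measured, of which 26.0% were called higher and 24.8% lower in ERC4 and 26.2% and 26.1% in EGFRsh. Among genes for ligand carboxylation and receptor shedding, 5 of 6 listed were measured, with 2 higher and 1 lower in ERC4 and 2 higher and 2 lower in EGFRsh. VKORC1, which recycles the vitamin K that ligand carboxylation uses, rose by 0.68 ± 0.07 in ERC4 and 0.61 ± 0.06 in EGFRsh. ADAM10, a protease that sheds AXL from the cell surface, rose by 1.25 ± 0.14 and 0.73 ± 0.07 (adjusted p = 6.6e-05 and 1.7e-05). ADAM17, a related sheddase, fell by 0.51 ± 0.06 in EGFRsh, and FURIN, a proprotein convertase, fell by 0.43 ± 0.09 in ERC4. GGCX, the carboxylase itself, was lower by 0.26 in EGFRsh, where another of its probe sets was called higher.

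Adaptors and signalling genes of the TAM receptors showed 3 higher and 4 lower of 17 measured in ERC4 (median -0.05) and 4 higher and 5 lower in EGFRsh (median -0.04), near the shares of all genes. Over 12 other settings the ERC4 counts were 2 to 5 higher and 3 to 5 lower, and those of EGFRsh 3 to 5 in each direction. PTK2, focal adhesion kinase, rose 2.16-fold in EGFRsh and PLCG1, phospholipase C gamma, 1.60-fold. AKT1, a kinase downstream of PI3K, fell 1.76-fold there and CBL, a ubiquitin ligase of receptor kinases, 1.61-fold. In ERC4, RANBP9 and the phosphatase gene PTPN11 rose by 0.69 and 0.67, and SOCS1 and VAV1 fell by 0.58 and 0.49.

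Of genes for phosphatidylserine recognition and engulfment, 5 of 19 were higher and 5 lower in ERC4, and 7 higher and 5 lower in EGFRsh (medians -0.07 and 0.12). The ERC4 counts fell to 3 higher after within-set quantile normalization and to 3 lower without ERC4 replicate 1 or 2 or parental replicate 2, and without dim probe sets they were 5 higher and 2 lower of 13. THBS1, the matrix protein thrombospondin, rose 4.92-fold in the resistant line and 31.1-fold in EGFRsh. ITGAV, an integrin chain that binds the bridging protein MFGE8, rose 2.61-fold in EGFRsh and the lipid transporter gene ABCA1 3.50-fold, while LGALS3, galectin-3, which is described as a further MERTK ligand, fell 1.97-fold. In ERC4 GULP1, an engulfment adaptor, rose 1.69-fold, CALR 1.60-fold, and the scavenger receptor gene LRP1 fell 1.69-fold.

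In the protein S anticoagulant system, 0 of 9 genes were called higher and 4 lower in ERC4, the comparison in which PROS1 itself rose (limma; by median -0.37 against -0.04 over all genes). C4BPA, a chain of the plasma protein that binds protein S, fell 2.12-fold. The log2 changes of PROC, F5 and THBD were -0.53, -0.53 and -0.42. At an unadjusted p under 0.05 the counts were 0 higher and 6 lower. In EGFRsh 3 were higher and 3 lower: the protein C receptor gene PROCR and the coagulation inhibitor gene TFPI rose 3.33-fold and 3.34-fold and thrombomodulin, THBD, 1.80-fold, while F5 fell by 0.59. Over 12 other settings that kept all 9 genes the ERC4 count was 0 higher and 4 to 6 lower. Without dim probe sets 4 of the 9 genes remained, 0 higher and 3 lower, and the group means of PROC and F5 lay under the array median in both ERC4 and parental. Markers of other cell types also fell in ERC4, with 0 higher and 6 lower of 11 for macrophages (median -0.32). For fibroblasts and endothelium 1 was higher and 5 lower of 11 (median -0.24). Without dim probe sets, 1 of 2 macrophage and 2 of 2 fibroblast and endothelial markers were lower. The fall is therefore not shown to be particular to the protein S genes. At an unadjusted p under 0.05, 0 macrophage markers were higher and 8 lower.

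Of 14 transcription factor genes reported to act on AXL, 10 were higher and 1 lower in ERC4 (71.4% higher, median 0.63), and 6 higher and 4 lower in EGFRsh (42.9% higher, median 0.17). Over all genes, 26.0% were higher in ERC4 (median -0.04) and 26.2% in EGFRsh (median -0.02). The list was written with earlier results of these data known, and some of its members, ZEB1 among them, had already been seen to change. Its counts therefore do not test an excess over all genes. WWTR1, which encodes the YAP relative TAZ, rose 4.87-fold in ERC4 cells and 3.17-fold in EGFRsh, where another of its probe sets was called lower. ZEB1, a repressor of epithelial genes, rose 2.94-fold and 3.42-fold. EPAS1, which encodes the hypoxia factor HIF-2 alpha, rose 4.15-fold and YAP1 2.03-fold in ERC4. YAP1 was called lower in EGFRsh, at -0.42 (adjusted p = 0.0018), and EPAS1 was not called there (0.14, adjusted p = 0.065). In EGFRsh MYB and SP1 fell 5.10-fold and 2.54-fold. The AP-1 subunit genes FOSL1 and JUN were called higher in ERC4, by 0.93 and 0.74, and in EGFRsh, by 0.57 and 0.79. FOS was called in neither. Over 12 other settings that kept all 14 genes the ERC4 count was 8 to 10 higher and 1 lower, and without dim probe sets it was 10 higher and 0 lower of 11.

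**Figure D4:**
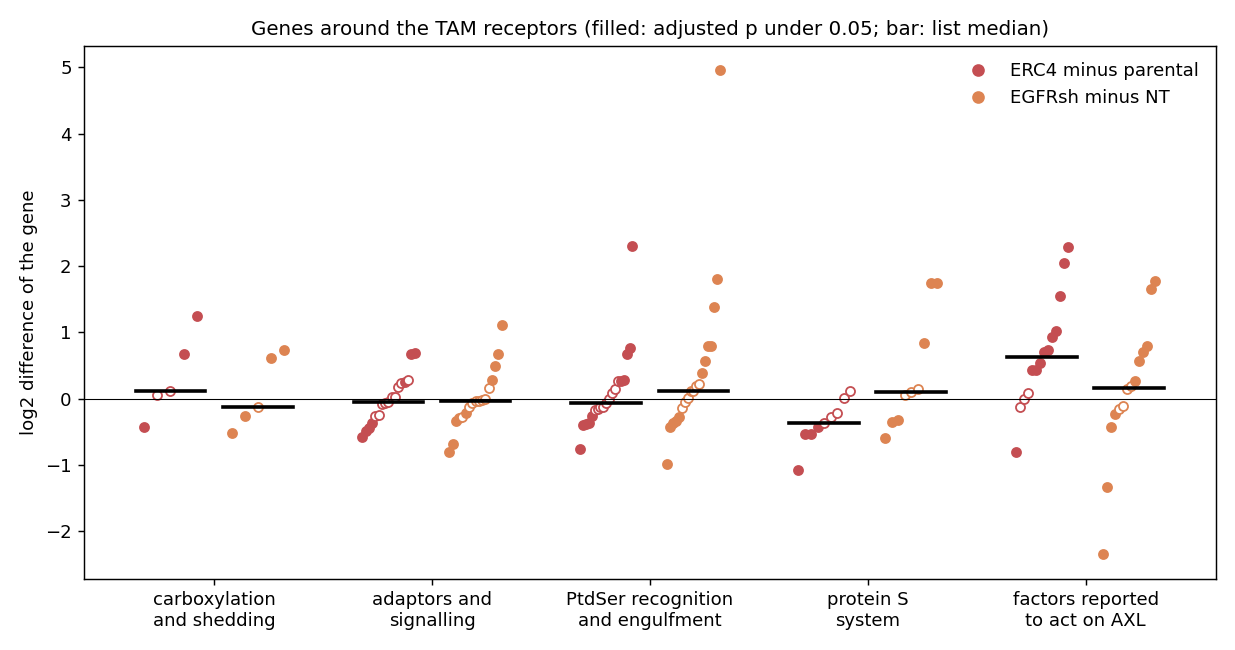
Each point is the log2 difference of 1 gene in ERC4 minus parental or EGFRsh minus NT, filled where the adjusted p was under 0.05, and bars are list medians. The factors reported to act on AXL, listed with earlier results of these data known, have the highest median in ERC4, 0.63. THBS1 is the highest point, at 4.96 in EGFRsh.

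By the likeness of their pattern, measured as Pearson's r over 12 arrays after centring each set, the genes nearest to AXL 202686_s_at among 11750 probe sets were CLK4 (r = 0.997), SLC7A6 (0.9953) and SH3GLB1 (0.9951). Nearest to GAS6 202177_at were NIBAN1 (0.9905), TGFBI (0.9894) and EBI3 (0.989), and nearest to PROS1 were POLR2K (0.9917), IL1R1 (0.991) and ASXL1 (0.9885). AXL 202686_s_at and GAS6 202177_at met the level that the rule asked for through EGFRsh alone, where they are high, and their nearest genes are chosen largely by that rise. The arrays of a group share their condition, so r follows largely from the ratio of the 2 changes. IL1R1, for one, changed by 2.16 and -1.14 where PROS1 changed by 1.21 and -0.66. The MERTK and TYRO3 probe sets that varied most did not reach the median level that the rule asked for.

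Markers of other cell types were mostly low. Of 11 macrophage markers, cells known for MERTK and AXL, 2 reached the array median in parental cells, 1 each in ERC4 and NT, and 0 in EGFRsh. Their summed intensity was 403 to 443 in the parental arrays and 325 to 353 in ERC4, and in the second set 638 to 648 for NT and 568 to 623 for EGFRsh. Of 11 fibroblast and endothelial markers, 2, 1, 1 and 1 reached the median, with summed intensities of 499 to 503, 404 to 434, 1043 to 1138 and 1082 to 1137 in the same order. LUM, which encodes the matrix proteoglycan lumican, was the 1 of these called higher in EGFRsh, by 2.56, but still lay under the median, at 6.77 to 6.81. Of 8 epithelial markers, 6 were called lower and 1 higher in ERC4, and 8 lower in EGFRsh. Log2 changes were -2.75 and -6.28 in CDH1 and -2.64 and -4.92 in EPCAM. NKX2-1 was the 1 called higher in ERC4, at 0.37 (adjusted p = 0.0067), and changed by -1.06 in EGFRsh. The part of these markers in the AXL and GAS6 results was not tested. In bulk RNA, fewer cells with a transcript and less of it per cell cannot be told apart.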

How the data were processed

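The authors deposited linear intensities for 22277 probe sets on 12 arrays, which the submitters' processing notes credit to RMA, its version not given in the sources used here. These deposited values were taken to log2(intensity + 1) here. Array medians fall at 2 levels, so the first and second 6 arrays look normalized separately. RMA shrinks changes of dim probe sets, and having 3 arrays per group limits the precision. Of the probe sets, 19070 carried 1 gene symbol, 1043 several and 2164 none. After leaving out 62 control probe sets, 22215 were fitted with limma 3.58.1 in R 4.3.3 (lmFit, eBayes), 6 arrays per comparison, and all 12 for the difference of effects. Calls are at a two-sided Benjamini-Hochberg adjusted p under 0.05 over all probe sets. All adjusted p-values are limma's, and errors of changes its standard errors. The procedure was tested on simulated data. Members and lists were chosen with earlier results of these data known. Named are all member probe sets, up to 4 called genes per list and comparison with the largest change, and 3 genes most like a member. The listed AP-1 genes are named as well, since their motif was searched. Listed genes without a probe set of 1 symbol were left out of the counts, CD68, NAPSA, TIMD4, MEGF10 and VKORC1L1 among them. Alternatives were the replicate block, a 12-array fit, trend and robust settings, within-set quantile normalization, median centring, no pseudocount, a filter on dim probe sets, gene means, a threshold of 0.01, stretching the first set and leaving out each array. Promoter windows are RefSeq's. Figures were drawn with matplotlib 3.10.9.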

Additional observations from a re-analysis of the deposited data

Results flagged for a closer look

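The change in ERC4 minus parental and the change in EGFRsh minus NT differed, by the limma test of their difference over all 12 arrays, in 7 probe sets. The values are the first change minus the second, ± SE. AXL gave -0.52 ± 0.13 in 202685_s_at (adjusted p = 0.0042) and -2.08 ± 0.18 in 202686_s_at (adjusted p = 3.2e-07). GAS6 gave -1.41 ± 0.09 in 1598_g_at (adjusted p = 2.1e-08) and -2.89 ± 0.17 in 202177_at (adjusted p = 7.8e-09). MERTK gave 0.49 ± 0.16 in 206028_s_at (adjusted p = 0.022) and 0.60 ± 0.16 in 211913_s_at (adjusted p = 0.0067). PROS1 gave 1.87 ± 0.10 (adjusted p = 4e-09), with every ERC4 array above its controls and every EGFRsh array below them.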

How the results depend on the processing

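The count of 7 member probe sets called in EGFRsh stayed at 7 when any array was left out. The count of 4 in ERC4 ranged from 3 to 6, and that of 7 for the difference of effects from 6 to 7. Over all 22215 probe sets these fits called 10011 to 10722 in EGFRsh, 8617 to 10325 in ERC4 and 9699 to 10629 for the difference. Without dim probe sets, 4 members were tested in ERC4 and 2 were called, beside 7789 of all 11946 probe sets kept. AXL 202686_s_at was among those left out. With probe sets averaged, 4 of 5 genes were called in EGFRsh, beside 6543 of all 11963 genes. With the replicate number as a block the counts were 4, 7 and 7 in ERC4, EGFRsh and the difference. That block called 10639 of all 22215 probe sets in ERC4 and 10454 in EGFRsh. The numbers did not pair the arrays, since deviations of same-numbered arrays correlated at 0.012 to 0.065 in the first set and -0.137 to -0.03 in the second, and not every array correlated best with its own number. The block ended no member's call. Of 460 values of single probe sets under alternatives, 440 kept their side of the threshold, 14 lost it and 6 gained it, and none of those called changed sign. Of the 14, 9 were GAS6 202177_at in ERC4 (-0.27 to -0.15) and 5 MERTK 206028_s_at in the difference of effects, which lost its call at a threshold of 0.01 (0.49) and without parental replicate 1 (0.43), ERC4 replicate 1 (0.40), NT replicate 3 (0.43) or EGFRsh replicate 2 (0.39). The causes were not tested. Dim signal limits fold sizes for AXL, MERTK and GAS6 202177_at.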
